A study of Mus musculus with 4 samples.

Results

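The HOX genes are a family of homeodomain transcription factors that lie in 4 clusters, HoxA to HoxD, and are numbered by paralogue group from 1 to 13. The members were taken by symbol, as the protein-coding genes named Hox with a cluster letter and a number. Of 39 such genes in the mouse annotation, 38 were found among the 39179 gene identifiers of the count tables, 11 in HoxA, 10 in HoxB, 9 in HoxC and 8 in HoxD. Hoxd4 was not analysed here.

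The libraries came from cells that the labels call macrophages, sorted from subcutaneous tumours as CD45+, CD11b+, GR1- and F4/80+. That sort is given for all 4 samples, but the sample titles name F4-80 only for MycCaP-BMP4, and whether both groups were sorted alike was not tested. The tumours were grown from MycCaP-BMP4 cells (2 libraries) or from MycCaP cells (2 libraries). MycCaP is a mouse prostate cancer line from an FVB mouse whose prostate carried a MYC transgene, so the tumours of both groups derive from that line, and MycCaP-BMP4 is its derivative that overexpresses BMP4, a secreted bone morphogenetic protein. The labels do not say whether the libraries of a group came from separate mice, or whether the derivative is a clone, so a p-value here reflects variation among these 4 libraries alone, which may be of technical origin.

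HOX proteins set position along the body axis of the embryo. Genes at the low-numbered end of a cluster act towards the head and genes at the high-numbered end towards the tail, and the order of the genes on the chromosome follows the order of their domains. The proteins bind DNA with partners of the TALE class, the PBX and MEIS proteins. Trithorax complexes keep the clusters active and Polycomb complexes keep them silent. In adult tissue, members of HoxA and HoxB are used by blood stem and progenitor cells and are reduced as myeloid cells mature, whereas Hoxb13 is used by the epithelium of the prostate.

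Each library held 24313328 and 23058263 gene counts in MycCaP-BMP4 and 24967143 and 24385036 in MycCaP, so that 3 counts, the limit that a count of 0 allows, stand for 0.120 to 0.130 counts per 1000000 gene counts (CPM). Levels of genes and marker lists are CPM scaled further with TMM factors, which adjust for the composition of the libraries. Bmp4, the overexpressed gene, was at 511 and 182 CPM in MycCaP-BMP4 and at 0.175 and 0.0422 CPM in MycCaP. Adgre1, which encodes F4/80, was at 146 and 638 CPM in MycCaP-BMP4 libraries 1 and 2, against 863 and 919 CPM in the MycCaP libraries. The 15 pan-macrophage markers together were at 7202 and 27187 CPM in MycCaP-BMP4 libraries 1 and 2, against 37181 and 32866 CPM in the MycCaP libraries. The 15 markers of prostate tumour epithelium went the other way, at 2220 and 929 CPM against 290 and 335 CPM, with Krt5 at 0 in all 4 libraries. MycCaP-BMP4 library 1 was therefore the furthest from the MycCaP libraries on the summed markers of the sorted cell type. Library 2 was below them too in most of these markers. In 13 of the 15 both MycCaP-BMP4 libraries were below both MycCaP libraries, beside 29.7% of all genes tested. Ptprc, which encodes CD45, was at 126 and 376 CPM against 650 and 689 CPM. The share of mitochondrial transcripts was 3.28% and 2.85% in MycCaP-BMP4, against 0.671% and 1.63% in MycCaP, and their part in the HOX differences was not tested. In libraries of many cells, fewer cells of a type and less RNA per cell cannot be told apart.

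The clusters lie on 4 chromosomes of the build GRCm38. HoxA spans chr6:52155590-52260880, HoxB chr11:96194316-96368256, HoxC chr15:102921103-103036852 and HoxD chr2:74668310-74765142. The 250 bases before the start of 3 members are printed below because these genes show both directions of difference. In both MycCaP-BMP4 libraries Hoxa5 and Hoxd8 were above, and Hoxb4 below, both MycCaP libraries. Sequences are RefSeq's on GRCm38.p6, read 5′ to 3′ on the strand of the gene, and capitals mark a CCAAT box on either strand.
Hoxa5 (chr6:52204588-52204837, minus strand): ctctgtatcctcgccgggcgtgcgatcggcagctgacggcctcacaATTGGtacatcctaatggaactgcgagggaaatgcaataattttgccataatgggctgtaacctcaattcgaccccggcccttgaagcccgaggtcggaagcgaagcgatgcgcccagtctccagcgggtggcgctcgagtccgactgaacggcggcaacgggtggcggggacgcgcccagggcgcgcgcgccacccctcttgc
Hoxd8 (chr2:74704365-74704614, plus strand): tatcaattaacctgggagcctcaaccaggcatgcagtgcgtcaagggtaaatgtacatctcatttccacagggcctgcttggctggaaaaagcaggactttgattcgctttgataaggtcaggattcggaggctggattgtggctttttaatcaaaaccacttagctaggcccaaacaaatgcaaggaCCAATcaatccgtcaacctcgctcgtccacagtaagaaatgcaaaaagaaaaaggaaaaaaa
Hoxb4 (chr11:96318017-96318266, plus strand): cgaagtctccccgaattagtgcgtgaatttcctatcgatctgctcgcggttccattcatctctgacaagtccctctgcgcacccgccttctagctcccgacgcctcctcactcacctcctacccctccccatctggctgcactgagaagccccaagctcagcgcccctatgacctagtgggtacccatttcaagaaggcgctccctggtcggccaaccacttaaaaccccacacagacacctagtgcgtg

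The reference held 23 such promoters, for 21 of the members. In all, 4 short motifs were searched on both strands, each counted without regard to overlap with the others: GGCGCC, letters bound by SMAD proteins downstream of BMP receptors; CACGTG, the E-box bound by MYC; TGACAG, bound by MEIS proteins; and CCAAT, bound by NF-Y. They were present in 5, 4, 2 and 13 of the 23 HOX promoters, in the order given. Among all 32851 promoters in the reference, the shares with a match were 9.59%, 6.02%, 15.9% and 33.9%. The GGCGCC matches were in Hoxa10, Hoxd1, Hoxd3, Hoxd11 and Hoxd13, and the CACGTG matches in Hoxd1, Hoxd10, Hoxd11 and Hoxd13. Of these genes only Hoxd3 had more than 1 count in a library. Members without a promoter in the reference included Hoxc6, Hoxb6, Hoxb7, Hoxb9 and Hoxb13. Of the promoters shown, the Hoxa5 and Hoxd8 promoters each held 1 CCAAT match and none of the other motifs, and the Hoxb4 promoter held no match to any of the 4. The G and C content was 63.6% for Hoxa5, 44.4% for Hoxd8 and 58% for Hoxb4, beside a median of 59.2% over the HOX promoters and 52.4% over all promoters. Hoxa5 had 28 CpG dinucleotides, Hoxd8 6 and Hoxb4 14, beside medians of 13 over the HOX promoters and 6 over all. A match is a description of the letters and not a binding site.

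Transcripts of the HOX clusters were present at a low level in every library, and their sum was higher in both MycCaP-BMP4 libraries. At least 1 count was found in any library for 32 of the 38 members, and for the other 6 (Hoxa11, Hoxa13, Hoxb1, Hoxd10, Hoxd12 and Hoxd13) there was none. The 38 members together had 3470 and 1021 counts in MycCaP-BMP4 libraries 1 and 2, against 682 and 657 counts in the MycCaP libraries. As CPM of the gene counts, without TMM factors, this was 143 and 44.3 against 27.3 and 26.9, a mean of 93.5 ± 69.6 in MycCaP-BMP4 and 27.1 ± 0.264 in MycCaP (SD, n = 2 each). The ratio of the means was 3.45, but the MycCaP-BMP4 libraries differed 3.22-fold from each other, and without MycCaP-BMP4 library 1 the ratio was 1.63. An exact permutation test of 2 libraries against 2 cannot give a two-sided p below 0.33, so the sums were not tested.

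**Figure D1:**
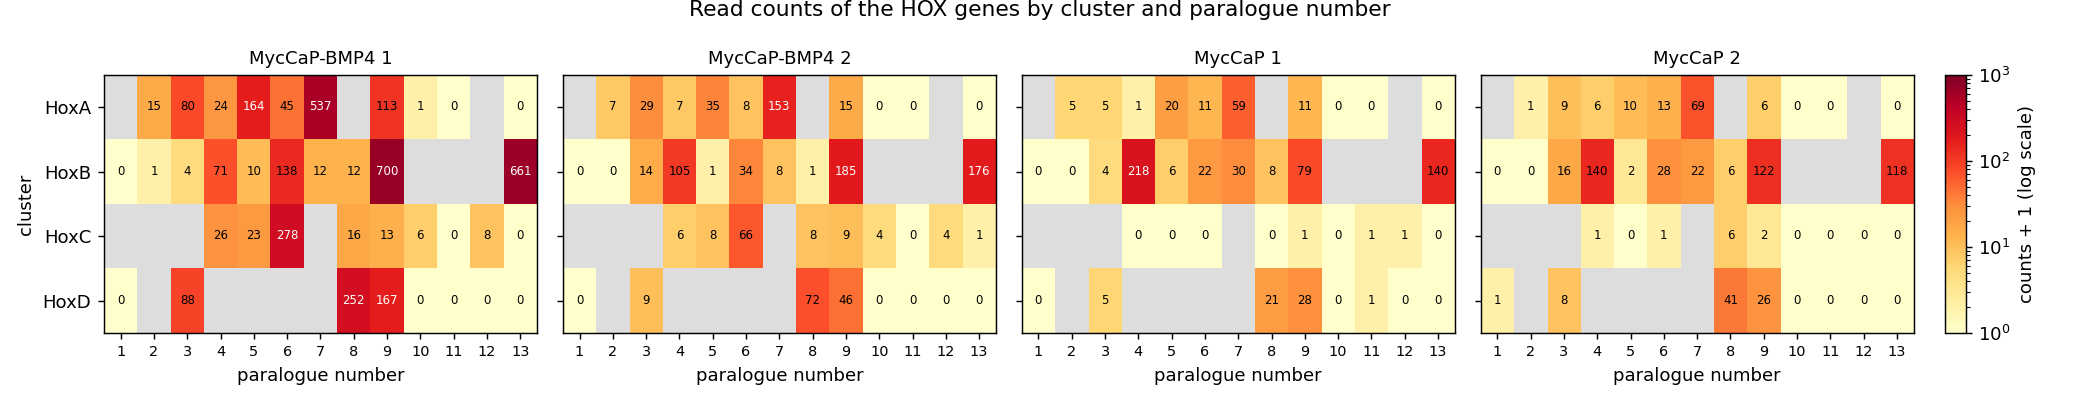
Read counts of each HOX gene in each library, by cluster (rows) and paralogue number (columns), with colour on a log scale of counts + 1 and the count printed in each cell; grey cells mark paralogue numbers with no gene in that cluster or with a gene that is not shown. Counts concentrate in groups 3 to 9 and in Hoxb13, and the HoxC row holds 3 and 10 counts in the MycCaP libraries.

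Along the clusters, transcripts were concentrated in groups 3 to 9 and in Hoxb13. Of the 26 members of groups 1 to 9, 23 had at least 10 counts in a library, and of the 12 members of groups 10 to 13 only Hoxb13 had. Hoxb13 had 661, 176, 140 and 118 counts in MycCaP-BMP4 1, MycCaP-BMP4 2, MycCaP 1 and MycCaP 2, while no other member of groups 10 to 13 passed 8 counts in a library. Group 9 was the most counted paralogue group in both MycCaP-BMP4 libraries, with 993 and 255 counts, against 119 and 156 counts in the MycCaP libraries. Group 4 was the most counted group in MycCaP library 1. Among the paralogue groups with 10 or more counts in any library, it alone had a lower sum in both MycCaP-BMP4 libraries. That sum was 121 and 118 counts against 219 and 147. The lower sum came from Hoxb4, with 71 and 105 counts against 218 and 140. In Hoxa4 and Hoxc4 both MycCaP-BMP4 libraries were above both MycCaP libraries. Group 6 had the highest ratio among the paralogue groups with counts in all 4 libraries, at 7.90, with 461 and 108 counts against 33 and 42. Group 11 had no count in the MycCaP-BMP4 libraries and 2 and 0 counts in MycCaP.

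The 4 clusters differed in how far they stood above MycCaP, in CPM without TMM factors. HoxC had 370 and 106 counts in the MycCaP-BMP4 libraries, against 3 and 10 in the MycCaP libraries, which is 15.2 and 4.60 CPM against 0.120 and 0.410 CPM, and a ratio of means of 37.4. HoxA was at 40.5 and 11.4 CPM against 4.69 and 4.80 (ratio 5.47). HoxD was at 20.9 and 5.51 CPM against 2.2 and 3.12 (ratio 4.96). HoxB was at 66.2 and 22.7 CPM against 20.3 and 18.6, the smallest ratio at 2.28, and 1.17 without MycCaP-BMP4 library 1. Without that library the ratios were 17.3 for HoxC, 2.41 for HoxA and 2.07 for HoxD. The HoxC ratio also depended on the few MycCaP counts, at 24.2 without MycCaP library 1 and 82.5 without MycCaP library 2. Both MycCaP-BMP4 libraries were above both MycCaP libraries in each of the 4 clusters, and for HoxB the gap between the nearer libraries was small.

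**Figure D2:**
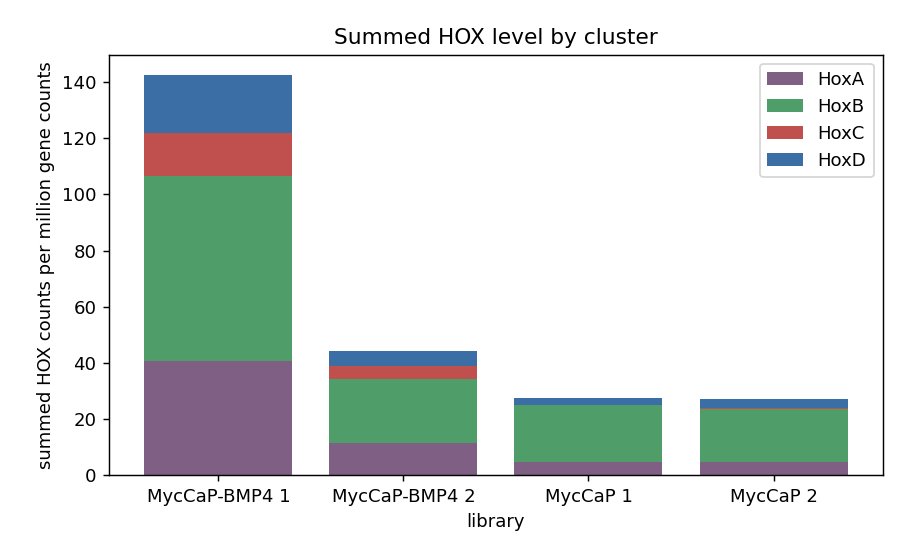
Summed HOX level of each library in CPM of its gene counts, stacked by cluster. The HoxC layer, 15.2 and 4.60 CPM in the MycCaP-BMP4 libraries, is nearly absent in the MycCaP libraries at 0.120 and 0.410.

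The mixture of HOX transcripts within a library does not depend on its depth or scaling, and it differed between the groups. HoxC took 10.7% (95% exact binomial interval 9.66% to 11.7%) and 10.4% (8.58% to 12.4%) of the HOX counts in the MycCaP-BMP4 libraries, against 0.440% (0.0908% to 1.28%) and 1.52% (0.732% to 2.78%) in the MycCaP libraries. HoxB took 46.4% and 51.3% against 74.3% and 69.1%. HoxA took 28.4% and 25.9% against 17.2% and 17.8%. HoxD took 14.6% and 12.4% against 8.06% and 11.6%, and the intervals of MycCaP-BMP4 2 (10.5% to 14.6%) and MycCaP 2 (9.22% to 14.3%) overlapped. These intervals cover counting error only. The HoxC share was nearly equal in the MycCaP-BMP4 libraries although their HoxC sums differed 3.31-fold.

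Single members made up these shifts unequally. Hoxb13 held 19.0% and 17.2% of the HOX counts in the MycCaP-BMP4 libraries and 20.5% and 18.0% in the MycCaP libraries, so its share overlapped between the groups. Hoxb4 held 2.05% and 10.3% against 32.0% and 21.3%, with no overlap. Hoxc6 held 8.01% and 6.46% against 0% (0 of 682 HOX counts, with an exact upper bound of 0.539%) and 0.152%. Hoxa7 held 15.5% and 15.0% against 8.65% and 10.5%. Hoxb9 held 20.2% and 18.1% against 11.6% and 18.6%, which overlapped. Hoxb4 was the most counted HoxB gene in both MycCaP libraries and Hoxb9 in both MycCaP-BMP4 libraries.

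Of the 38 members, 14 had enough counts for the test, which needs about 10 counts in at least 2 libraries, and 24 did not. Hoxa3 and Hoxc6 had enough only in the MycCaP-BMP4 libraries, so they entered because they are high there. Levels below are TMM-scaled CPM, and log2 fold changes are MycCaP-BMP4 over MycCaP. No member was called by edgeR's quasi-likelihood test at a Benjamini-Hochberg adjusted p under 0.05, and no gene of the 14075 tested was (0%). The members' edgeR adjusted p ran between 0.112 and 0.936, beside a lowest value of 0.0667 over all genes. Without adjustment, 9 of the 14 had p under 0.05 with a higher level and 0 with a lower level, beside 12.3% and 6.76% of all genes, or 19% in either direction. In 10 of the 14 both MycCaP-BMP4 libraries were above both MycCaP libraries (28.9% of all genes tested) and in 2, Hoxb4 and Hoxb7, both were below (29.7%), while Hoxa6 and Hoxb3 overlapped. Over the 32 members with any count the figures were 19 higher, 2 lower and 11 overlapping, beside 24.4% higher and 23.2% lower among all genes with a count. The median log2 fold change of the 14 was 1.88, against -0.03 over all genes tested. DESeq2 called 6 members, all higher (Hoxc6, Hoxa7, Hoxb9, Hoxd8, Hoxa3 and Hoxa5), beside 6.83% of genes called higher and 3.01% called lower. limma-voom called no member and no gene (0%), with 19.5% of genes at an unadjusted p under 0.05. The edgeR fold changes depended on single libraries. The median log2 fold change was 2.53 over the 23 members tested without MycCaP-BMP4 library 2. It was 0.83 over the 15 members tested without MycCaP-BMP4 library 1. Over all genes tested it was -0.03 in both of these fits.

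**Figure D3:**
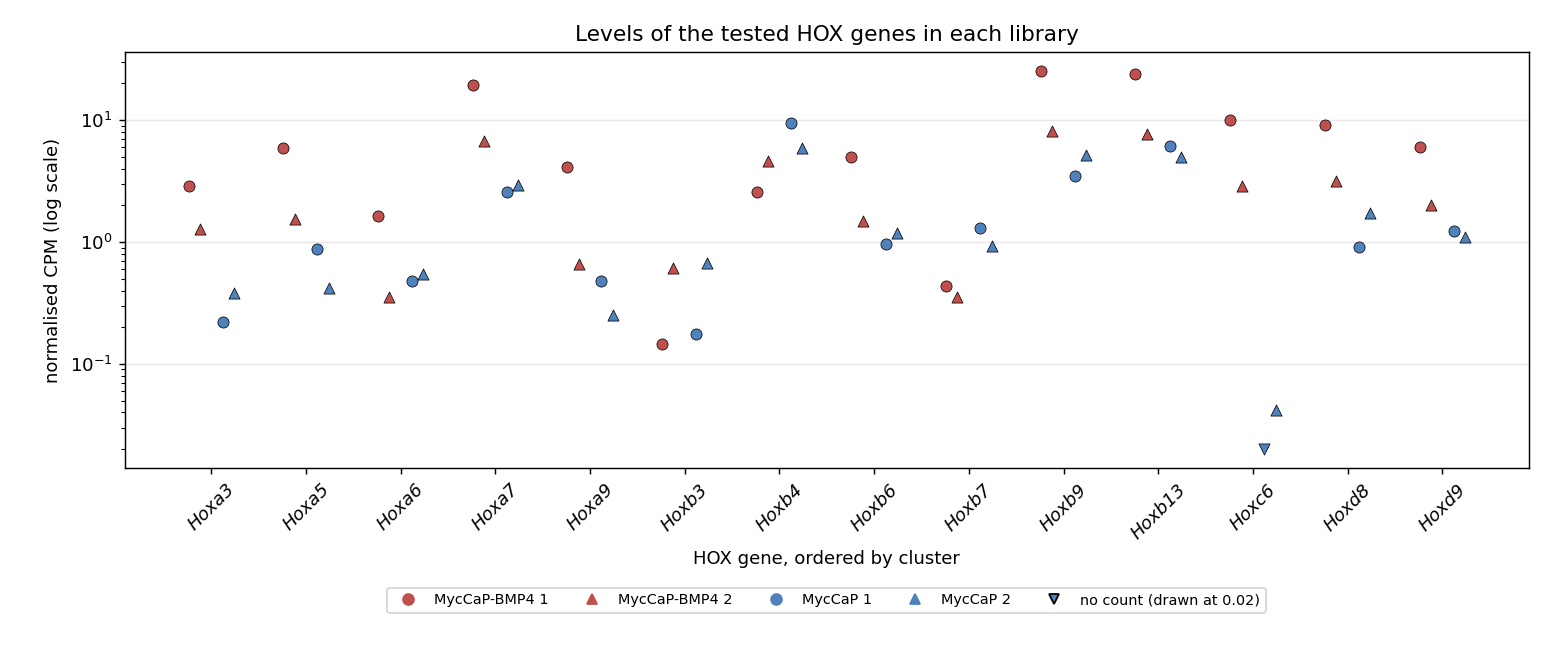
Normalised CPM of the 14 tested HOX genes on a log axis, one symbol per library, ordered by cluster; a downward triangle marks a library with no count. Hoxb4 and Hoxb7 are lower in both MycCaP-BMP4 libraries, and Hoxc6 is at 10.1 and 2.90 CPM there against 0 and 0.0422 CPM in MycCaP.

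Hoxc6, a HoxC gene of the trunk and limb (chr15:102998257-103011881, plus strand), had the largest difference of any member. It had 278 and 66 counts in MycCaP-BMP4 libraries 1 and 2, against 0 and 1 in the MycCaP libraries. The ratio of counts per total was 358, with an interval of 63.9 to 14196 that covers counting error only and rests on the 1 MycCaP count. Its edgeR adjusted p was 0.112 and its unadjusted p 0.000827, and DESeq2's adjusted p was 3.2e-05. The log2 fold change of Hoxc6 was 6.76 without MycCaP-BMP4 library 1 and 8.60 without MycCaP-BMP4 library 2. It was 7.09 without MycCaP library 1 and 10.3 without MycCaP library 2. The neighbours on HoxC had fewer counts and the same direction. Hoxc4 had 26 and 6 counts against 0 and 1. Hoxc5 had 23 and 8 counts against 0 and 0, at least 10.8-fold higher when 3 counts are set over the MycCaP group. Hoxc8 had 16 and 8 counts against 0 and 6, and Hoxc9 had 13 and 9 against 1 and 2. In all of these the MycCaP-BMP4 libraries were above the MycCaP libraries. At the high-numbered end, Hoxc10 had 6 and 4 counts against 0 and 0 (at least 3.47-fold higher) and Hoxc12 had 8 and 4 against 1 and 0, while Hoxc13 had 1 count, in MycCaP-BMP4 2, and Hoxc11 had 1 count, in MycCaP 1. Hoxc5 and Hoxc10 share 166 bases of exon on the same strand, where the counting could not tell them apart. Without its most counted member, HoxC still had a ratio of 11.3.

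In HoxA, 4 of 5 tested members were higher without overlap, and Hoxa7 (chr6:52214491-52221854, minus strand), a trunk gene also used by blood progenitors, was the most counted HoxA member in every library. It was at 19.4 and 6.72 CPM in MycCaP-BMP4, against 2.58 and 2.91 CPM in the MycCaP libraries, a log2 fold change of 2.25 ± 0.60 (SE; edgeR adjusted p = 0.159, DESeq2 adjusted p = 0.00517). An exon stretch of 586 bases of Hoxa7, 20.4% of its exon length, lies opposite to the antisense gene Hoxaas3, which had at most 12 counts in a library. Hoxa5, whose promoter is printed above and which is known for its part in lung and trunk patterning, was at 5.93 and 1.54 CPM, against 0.874 and 0.422 CPM (2.52 ± 0.88, edgeR adjusted p = 0.223). Hoxa3, which patterns the throat region, was at 2.90 and 1.27 CPM, against 0.219 and 0.380 CPM (2.78 ± 0.79, edgeR adjusted p = 0.171). Hoxa9, an established gene of haematopoietic progenitors and of leukaemia, was at 4.09 and 0.658 CPM, against 0.481 and 0.253 CPM (2.68 ± 1.05, edgeR adjusted p = 0.253). Hoxa6 was at 1.63 and 0.351 CPM against 0.481 and 0.548 CPM, and the groups overlapped. No HoxA member outside the test passed 24 counts in a library. Hoxa2 had 15 and 7 against 5 and 1, Hoxa4 had 24 and 7 against 1 and 6, and Hoxa10 had 1 count in MycCaP-BMP4 1 alone.

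HoxB held the members of highest level and the only 2 that were lower in both MycCaP-BMP4 libraries. Hoxb9 (chr11:96271457-96276595), a gene of the thoracic trunk, was at 25.3 and 8.12 CPM in MycCaP-BMP4, against 3.45 and 5.15 CPM in the MycCaP libraries, a log2 fold change of 1.96 ± 0.62 (edgeR adjusted p = 0.199, DESeq2 adjusted p = 0.0209). Hoxb13 (chr11:96194316-96197447), the tail-end member known from prostate epithelium, was at 23.9 and 7.73 CPM, against 6.12 and 4.98 CPM (1.51 ± 0.59, edgeR adjusted p = 0.253). Hoxb6 was at 4.99 and 1.49 CPM against 0.962 and 1.18 CPM (1.60 ± 0.76, edgeR adjusted p = 0.319). These 3 did not overlap between the groups, and in each MycCaP-BMP4 2 was the nearer library to MycCaP. Per kilobase of exon, Hoxb13 had 10.8 and 3.50 CPM per kb in MycCaP-BMP4 and 2.77 and 2.26 CPM per kb in MycCaP, and Hoxb9 had 9.84 and 3.16 against 1.34 and 2.00, so these neighbouring levels differed by less than the spread between the MycCaP-BMP4 libraries.

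Hoxb4 (chr11:96318267-96321638, plus strand), a gene of blood stem cell self-renewal, was at 2.57 and 4.61 CPM in MycCaP-BMP4 libraries 1 and 2, against 9.53 and 5.91 CPM in the MycCaP libraries. Its log2 fold change was -1.11 ± 0.52 (edgeR adjusted p = 0.313), and the MycCaP libraries differed from each other by more than the nearer libraries of the groups did. Hoxb7, which is used in trunk patterning, was at 0.434 and 0.351 CPM against 1.31 and 0.928 CPM (-1.50 ± 0.69, edgeR adjusted p = 0.307). When libraries were scaled on the median of the 15 pan-macrophage markers, the log2 fold changes of Hoxb4 and Hoxb7 became 0.32 and 0.19, because that scaling moved the median of all genes to 1.63, so their direction depends on the scaling; relative to that median both were still below it. Under the same scaling 11 of the 14 tested members were higher without overlap and 0 were lower, beside 69.2% and 4.07% of all genes tested. Per kilobase, Hoxb4 was the highest member in MycCaP, at 3.71 and 2.30 CPM per kb, close to Hoxb13. Hoxb3 was at 0.145 and 0.615 CPM against 0.175 and 0.675 CPM, and the groups overlapped. Hoxb5 had 10 and 1 counts against 6 and 2, Hoxb8 had 12 and 1 against 8 and 6, and Hoxb2 had 1 count in MycCaP-BMP4 1 alone.

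HoxD was represented by 3 members. Hoxd8 (chr2:74704615-74707933), whose promoter is printed above, was at 9.12 and 3.16 CPM in MycCaP-BMP4, against 0.918 and 1.73 CPM in the MycCaP libraries, a log2 fold change of 2.21 ± 0.72 (edgeR adjusted p = 0.205, DESeq2 adjusted p = 0.0290). Hoxd9 (chr2:74697727-74700208) was at 6.04 and 2.02 CPM against 1.22 and 1.10 CPM (1.79 ± 0.71, edgeR adjusted p = 0.256). Both were separate between the groups. Hoxd3, which missed the test with 9 counts in MycCaP-BMP4 2, had 88 and 9 counts against 5 and 8, a count ratio of 7.77 (4.34 to 15.1, counting error only) that rests on MycCaP-BMP4 library 1. Hoxd1 and Hoxd11 had 1 count each, both in MycCaP.

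**Figure D4:**
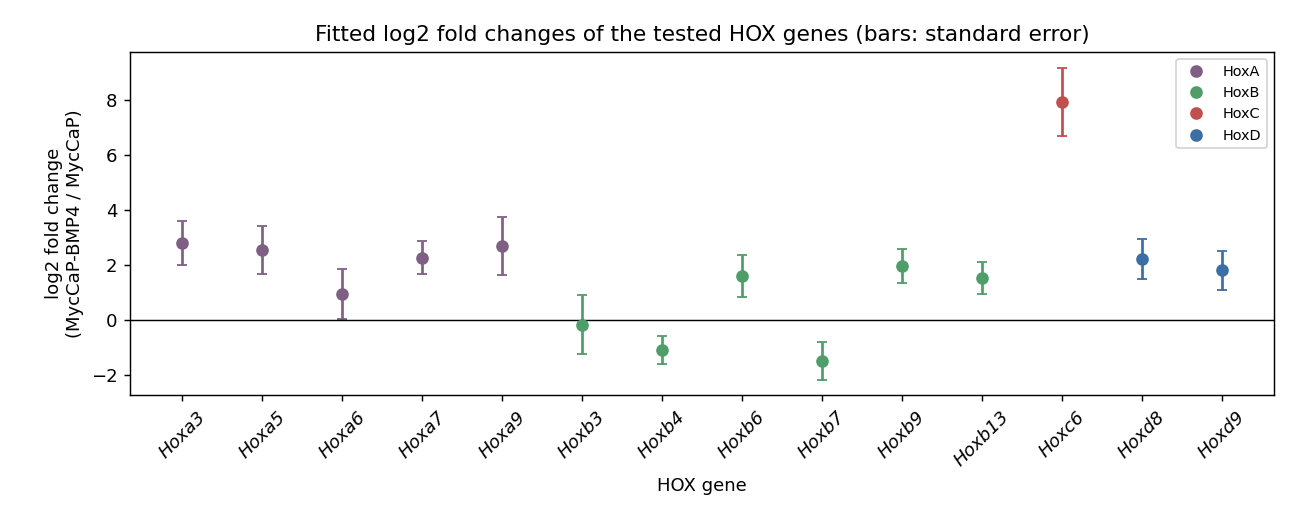
Fitted log2 fold change (MycCaP-BMP4 over MycCaP) with its standard error for the 14 tested HOX genes, by cluster. Hoxc6, at 7.93, rests on 1 count in the MycCaP libraries, and Hoxb4 and Hoxb7 lie below 0.

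The MycCaP-BMP4 libraries differed from each other more in these genes than in most. MycCaP-BMP4 library 1 was above library 2 in 12 of the 14 tested members, all but Hoxb3 and Hoxb4, and by at least 2 times in 11 of 14, beside 11.4% of all genes tested. The median ratio of library 1 to library 2 was 3.04 over the members and 1.01 over all genes tested. In the 10 higher members the ratio ran between 2.27 and 6.21. Over the 15 markers of prostate tumour epithelium the sums stood in a ratio of 2.39, and over the 15 pan-macrophage markers in a ratio of 0.265. Relative to the MycCaP mean on the log2 scale, Hoxb4 was at -1.59 in library 1 and -0.74 in library 2. Hoxb7, the other lower member, had the opposite order, at -1.37 and -1.67. The median pan-macrophage marker was at -2.36 and -0.44. The part of these marker levels in the HOX differences was not tested.

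The markers of the other cell types were examined as whole lists. Among the 15 prostate tumour epithelium markers 10 could be tested, 8 were higher without overlap and 1 was lower, beside 28.9% and 29.7% of all genes tested, and none was called. Krt15, a keratin of basal epithelium, was at 938 and 409 CPM in MycCaP-BMP4, against 42.5 and 47.4 CPM in MycCaP, while Cdh1, an epithelial adhesion gene, was lower at 0.326 and 1.93 CPM against 5.16 and 4.05 CPM. The fibroblast markers summed to 480 and 388 CPM against 245 and 600 CPM and the endothelial markers to 48.1 and 31.1 CPM against 54.4 and 95.6 CPM. The osteoblast and chondrocyte markers summed to 148 and 82.9 CPM against 27.8 and 42.5 CPM. Most of the MycCaP-BMP4 sums came from Sox9 alone, at 128 and 65.5 CPM against 11.1 and 19.3 CPM. Of 8 tested, 5 were higher and 1 lower without overlap, beside 28.9% and 29.7% of all genes tested. Of those 5, 4 had at least 10 counts only in the MycCaP-BMP4 libraries and so entered through the group where they are high. The haematopoietic progenitor markers summed to 13.5 and 10.1 CPM against 19.8 and 26.2 CPM. Of 6 tested, 0 were higher and 2 lower without overlap, beside the same shares of all genes tested. T and NK cell markers summed to 14.7 and 44.0 CPM against 77.9 and 77.7 CPM, and neutrophil markers to 35.2 and 8.47 CPM against 12.9 and 12.4 CPM, with Ly6g at 0. The part of these cell types in the HOX levels was not tested.

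**Figure D5:**
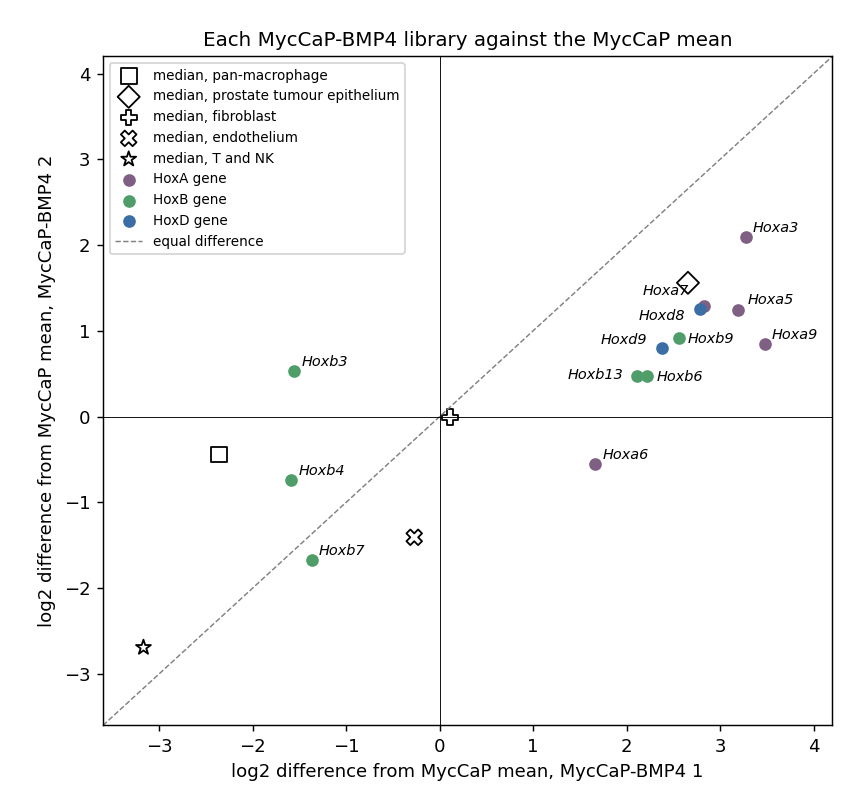
Log2 difference of each MycCaP-BMP4 library from the MycCaP mean, library 1 on the horizontal and library 2 on the vertical axis, for 13 tested HOX genes, with the median of 5 marker lists as open symbols; Hoxc6 is left out because its MycCaP mean rests on 1 count. Most HOX genes lie below the dashed line of equal difference, with the epithelial median at 2.66 and 1.56.

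Among the TALE cofactors, 8 of 9 genes were tested, 4 were higher without overlap and 2 lower, beside 28.9% and 29.7% of all genes tested, and none was called. Their median log2 fold change was 0.87, against -0.03 over all genes. Meis2, a MEIS partner of HOX proteins, was at 30.3 and 11.7 CPM in MycCaP-BMP4, against 3.63 and 5.27 CPM in MycCaP (2.24 ± 0.55, edgeR adjusted p = 0.152). Pbx4, which entered the test through the MycCaP-BMP4 libraries only, was at 1.56 and 0.659 CPM against 0.0874 and 0.0844 CPM. The HOX partners Pbx2 and Meis3 were the 2 lower genes, at 35.6 and 52.7 CPM against 67.9 and 54.9 CPM for Pbx2 and at 2.28 and 6.59 CPM against 7.91 and 9.28 CPM for Meis3. None of these 4 genes overlapped between the groups. The pan-macrophage scaling shifts all genes upwards alike, and under it Pbx2 was higher and Meis3 overlapped.

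Among genes of the complexes that regulate the clusters, the Polycomb list was split between the directions, while more trithorax genes were higher than lower. Of 20 Polycomb genes, all tested, 6 were higher and 5 lower without overlap, near the 28.9% and 29.7% of all genes tested, and their median log2 fold change was -0.12. Of 13 trithorax and elongation genes 6 were higher and 1 was lower without overlap, beside the same shares of all genes, with a median of 0.24. Under the pan-macrophage scaling 15 of 20 Polycomb and 13 of 13 trithorax genes were higher without overlap, beside 69.2% of all genes tested. In both lists 0 were lower, beside 4.07% of all genes tested. Cbx2, a Polycomb chromodomain protein, was at 10.4 and 3.99 CPM against 1.75 and 1.10 CPM, and Pcgf6, a RING finger subunit, at 36.3 and 19.3 CPM against 8.61 and 10.3 CPM. Mllt3, an elongation partner of the trithorax protein KMT2A, was at 56.9 and 23.2 CPM against 11.3 and 16.6 CPM. Ezh2, the Polycomb methyltransferase, was at 48.2 and 48.9 CPM against 69.7 and 64.7 CPM, and Kmt2a at 46.2 and 55.2 CPM against 53.6 and 50.6 CPM. Under TMM, Ezh2 was thus lower in both MycCaP-BMP4 libraries and Kmt2a overlapped between the groups.

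Among genes that set the clusters in the embryo, the shares higher and lower were near those of all genes tested. The caudal genes Cdx1, Cdx2 and Cdx4 had no count in any library. Of the 17 input genes 12 were tested, with 3 higher and 3 lower without overlap, beside 28.9% and 29.7% of all genes tested. Their median was 0.03 on the log2 scale. Under the pan-macrophage scaling 8 of the 12 were higher without overlap and 0 lower, beside 69.2% and 4.07% of all genes tested. Aldh1a1, which makes retinoic acid, was at 2669 and 1197 CPM in MycCaP-BMP4, against 427 and 526 CPM in MycCaP (2.02 ± 0.54, edgeR adjusted p = 0.160), and Aldh1a2 was high in MycCaP-BMP4 library 2 alone, at 3.94 and 38.5 CPM against 4.02 and 5.02 CPM. The retinoic acid receptor Rarg was at 75.7 and 58.0 CPM against 38.1 and 46.7 CPM.

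Of 14 other homeobox genes, 7 had no count in any library, among them Evx2, which lies next to HoxD, and Pdx1. Of the 4 that were tested, 3 were higher and 1 lower without overlap, beside 28.9% and 29.7% of all genes tested. Dlx2, a distal-less gene of the head and limb, was at 24.6 and 7.16 CPM against 0.437 and 1.22 CPM (4.25 ± 0.85, edgeR adjusted p = 0.138), and Dlx4 was at 5.46 and 1.80 CPM against 0.612 and 0.759 CPM. Gbx2 was at 0.0362 and 0.176 CPM against 0.918 and 0.928 CPM, which is 1 and 4 counts against 21 and 22, and it stayed lower when scaled on the pan-macrophage markers. Dlx2, like most HOX members, was higher in MycCaP-BMP4 library 1 than in library 2.

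Among 39 other counted genes inside the clusters, 9 had at least 10 counts in a library and 23 had none. Gm53, a long non-coding RNA between Hoxb13 and Hoxb9 (chr11:96251105-96264868), was at 8.54 and 2.50 CPM in MycCaP-BMP4, against 0.525 and 0.802 CPM in the MycCaP libraries (3.05 ± 0.79, edgeR adjusted p = 0.155). Gm27605, a short RNA gene near Hoxb13 that entered the test through the MycCaP-BMP4 libraries only, was at 1.77 and 1.05 CPM against 0.131 and 0.127 CPM (3.41 ± 0.79, edgeR adjusted p = 0.147). These HoxB transcripts had the direction of Hoxb13 and Hoxb9 and not that of Hoxb4. Hotairm1, an antisense RNA of HoxA known from myeloid differentiation, was at 3.08 and 1.67 CPM against 1.49 and 1.56 CPM (0.64 ± 0.61, edgeR adjusted p = 0.586), and its level in MycCaP-BMP4 2 was close to that of the MycCaP libraries. Gm15050 in HoxA was at 1.05 and 0.746 CPM against 0.262 and 0.253 CPM, and Gm27477 had 20 and 7 counts against 1 and 3. Hoxb3os was at 0.579 and 0.966 CPM against 0.481 and 0.506 CPM. Hoxaas3, Gm11539 and Hoxd3os1 overlapped between the groups.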

How the data were processed

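RNA of the sorted cells was purified, selected for poly(A), made into strand-specific libraries and read in pairs, per the labels' protocols. Per the submitters' processing notes, the authors counted reads with HTSeq, and the deposited files hold these raw counts as 1 whole number a gene. STAR 2.6.0b, RSEM, Bowtie2 2.2.3 and GRCm38 (mm10) are also named in those notes. The annotation release and the strand setting were not given in the sources used here, and members that share exon bases with another gene (11, of which 4 were tested) are therefore uncertain.

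Identifiers were given symbols (37607 of 39179) and GENCODE M21 coordinates (37693). Lines that name no gene (among them reads outside genes, 6.01% and 6.03% in MycCaP-BMP4 and 3.98% and 3.37% in MycCaP) were left out of library sizes. Genes kept by filterByExpr (14075) were scaled by TMM (factors 1.14 and 0.988 in MycCaP-BMP4, 0.916 and 0.972 in MycCaP) and tested across both groups with edgeR 4.0.16, quasi-likelihood, two-sided, without a covariate, calling genes at a Benjamini-Hochberg adjusted p under 0.05. The script was also tested on simulated data. DESeq2 1.42.0, limma-voom (limma 3.58.1), other scalings and filters, a replicate block and each library left out were alternatives. Sums use CPM of gene counts without TMM factors, except those of marker lists, which use them. Intervals are 95% exact ones.

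All members with at least 10 counts in a library or in the test are named with their values, except items that are not reported here. Of each gene list up to 3 genes with the smallest p are named, and of the non-coding genes in the clusters those with at least 10 counts. Pbx2, Meis3, Ezh2, Kmt2a, Cdh1, Bmp4, Adgre1, Ptprc and the members with fewer counts are not covered by this rule and were picked with their values in view. The members and the lists were chosen with earlier results of these data known.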

Additional observations from a re-analysis of the deposited data

Results flagged for a closer look

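Reads outside annotated genes, which enter no comparison above, made up 6.01% and 6.03% of all reads that HTSeq tallied in the MycCaP-BMP4 libraries. That total includes ambiguous and non-unique alignments. The shares were above the 3.98% and 3.37% in the MycCaP libraries. These reads outside genes stand out as a signal outside the main measurement. With 2 libraries a group, no test for a sample far from the others applies.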

How the results depend on the processing

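No member passed edgeR's test under DESeq2 size factors, library size alone, a filter of 1 CPM in 2 libraries or the replicate block. None passed limma-voom's own test either. Of all genes, 65 were called under library size alone, 2 under the replicate block and 0 under the other 3 of these alternatives. Scaling on pan-macrophage markers gave 1052 genes (1029 higher, 23 lower) and 8 members, with 0 members lower without overlap; no filter on low counts gave 1109 genes and 3 members, with 19 of 32 members higher (24.4% of all genes); DESeq2's Wald test gave 1385 genes and 6 members; and 1 CPM in 2 libraries left 1 member lower. Under library size alone 47 of the called genes were higher and 18 lower. The causes of these shifts were not tested.

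Leaving out each library in turn gave 0 to 5753 called genes, 0 to 14 called members and 11 to 20 members higher without overlap. The numbers tested changed too: 20 of 23 without MycCaP-BMP4 replicate 2 (43.4% of all genes), 11 of 15 without MycCaP-BMP4 replicate 1 (38.7%), 18 of 23 without MycCaP replicate 1 (37.1%) and 17 of 24 without MycCaP replicate 2 (37.5%). Without MycCaP-BMP4 replicate 2 the log2 fold change of Hoxb4 was -1.56. In these fits the lone library is assumed to vary like the other group. The median log2 fold change of the members was 0.83 without MycCaP-BMP4 replicate 1 and 2.53 without replicate 2. The ratio of summed HOX levels ran between 1.63 and 5.26 over all members, 2.41 and 8.53 for HoxA, 1.17 and 3.40 for HoxB, 17.3 and 82.5 for HoxC, and 2.07 and 7.84 for HoxD; scaling on pan-macrophage markers gave 12.1, 19.4, 7.88, 130.2 and 17.7 in the same order. Hoxa6 ran between -0.55 (without MycCaP-BMP4 replicate 1) and 1.68 with a library left out, and was at 3.02 with pan-macrophage scaling. Hoxb3 was at -1.50 without MycCaP-BMP4 replicate 2 but turned to 0.52 without MycCaP-BMP4 replicate 1, to 1.08 without MycCaP replicate 2 and to 0.84 with pan-macrophage scaling, which also turned Hoxb4 (0.32) and Hoxb7 (0.19). Of 164 values of single members under these alternatives, 129 kept their direction and side of the threshold, 29 passed it and 6 turned.

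The replicate numbers pair the samples in no label, and same-numbered deviations correlated at -0.154 over 14075 genes. With the replicate block, 0 members and 2 genes were called. Crossing the numbers, a pairing added after seeing the data, gave 689 genes and 1 member. Members at under 10 counts are limited by depth, since 3 counts are 0.120 to 0.130 CPM.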
